A study of Mus musculus with 5 samples.

Results

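Guides to 4 genes of pluripotency and germ cell development were counted in a CRISPR screen of transcription factors, run as 1 pool in mouse embryonic stem (ES) cells. The genes are Prdm14, Cbfa2t2, Tfap2c and Sall4, listed as PRDM14, CBFA2T2, TFAP2C and SALL4 in the count files. They are 4 of the 1682 genes in the library and carry 40 of its 16820 gene guides, 10 per gene. The members were chosen by their gain in guide abundance between days 5 and 12, so that gain is given here as a description and has no test.

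In such a screen a lentivirus inserts the guide into the cell's DNA, so reads on a guide count the cells that carry it, and a guide whose cells outgrow the rest gains reads. The 5 libraries are 2 of the guide plasmid pool, made from a maxiprep, and 1 library each from transduced cells on days 5, 8 and 12. The cells are an ES cell line labelled Ainv15(iNgn2 Tubb3::GFP), untreated apart from Zeocin, which selects for the integrated guide vector and stayed in the ES cell medium to the end. The plasmid libraries bear the same genotype and cell type labels although they hold no cells. The titles give days after transduction, whereas in the protocol day 5 is a day of selection. Guide DNA was counted and no RNA was measured, so the identity of the cells cannot be read from these data. With 1 library at each time point, no difference between days has a replicate culture behind it, and whether 1 culture was sampled repeatedly is not in the labels.

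PRDM14 is a PR domain zinc-finger protein that represses FGF pathway and DNA methylation genes in naive ES cells and is needed for primordial germ cells, the embryonic precursors of sperm and eggs. CBFA2T2 is an ETO family corepressor that binds PRDM14 and holds it on chromatin. TFAP2C is an AP-2 family factor that acts with PRDM1 and PRDM14 when primordial germ cells are specified. SALL4 is a spalt-like zinc-finger protein that interacts with OCT4 and with the NuRD deacetylase complex. These 4 proteins are counted among the positive factors of the pluripotent or germ cell state.

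In the mouse genome (build mm10, coordinates of the RefSeq table for GRCm38.p6) Prdm14 lies on chromosome 1, from 13113428 to 13127163. The other 3 are on chromosome 2: Cbfa2t2 from 154436098 to 154539356, Sall4 from 168748332 to 168767201 and Tfap2c from 172545678 to 172558622. Guides were placed against each other and not on the genome, so the exons they target are not given here.

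Many guides of a gene overlap, and such guides are not separate looks at it. When guides were joined by an exact overlap of at least 8 bases on either strand, the 10 guides fell into 8 sites for Prdm14, 6 for Cbfa2t2, 8 for Tfap2c and 4 for Sall4. Guides that share a site are shown for the places where the results turn on them, with 1 guide that stands alone. Capitals mark the bases that a guide shares with another guide of the same gene, on either strand.

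Prdm14 guide 5: CGTGAAGAATATggatccgg
Prdm14 guide 7: ATATTCTTCACGtccatgag
Prdm14 guide 6: GAACCGAGCACAGTTGacat
Prdm14 guide 9: CAACTGTGCTCGGTTCccca
Cbfa2t2 guide 5: ctcacCTGAGATCGGCGAGA
Cbfa2t2 guide 9: CTGAGATCGGCGAGAAGGTT
Cbfa2t2 guide 10: cgAACCTTCTCGCCGATCTC
Cbfa2t2 guide 1: ctcccacCAATAAATCCTGG
Cbfa2t2 guide 2: CAATAAATCCTGGaggaccg
Cbfa2t2 guide 4: GGAATCACAAAtggacgaag
Cbfa2t2 guide 8: ttgagaaatGGAATCACAAA
Tfap2c guide 2: GTAGAGATGTTGTCCcggag
Tfap2c guide 5: ggactGTAGAGATGTTGTCC
Sall4 guide 1: tcgtgtgtaacatatgcggg
Sall4 guide 9: CCGTGTGCAGCAGTGCTGCT
Sall4 guide 3: AGCAGTGCTGCTtggcctgg
Sall4 guide 4: CAGCACTGCTGCACACGGtg

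Library totals ran from 1008492 to 3541896 reads. The median kept guide was read 178 and 68 times in the plasmid libraries and 47 to 53 times in the cells. A guide was kept when it had at least 30 reads in both plasmid libraries, which left 34 of the 40 guides: 7 of Prdm14, 10 of Cbfa2t2, 8 of Tfap2c and 9 of Sall4. Changes are log2 ratios of scaled CPM (counts relative to the library's total, with TMM factors) plus a pseudocount of 1, against the mean of both plasmid libraries unless a day is named. Non-targeting guides, which match no gene, are the control: their median change on days 5, 8 and 12 was 0.41, 0.54 and 0.58, above the median gene at 0.0077, 0.014 and 0.0090. A gene at the non-targeting level therefore has a log2 change above 0.

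All 4 genes stood near or below the non-targeting level at days 5 and 8, and their medians lay above it at day 12. For Cbfa2t2 that depended on the summary: its mean over guides (0.52) and the median of its site means (0.39) were below the non-targeting median of 0.58. Taken over all 10 guides, Prdm14 had 534 and 538 RPM (reads scaled to the library's total, without TMM factors) in plasmid libraries 1 and 2. It had 494 RPM at day 5, then 662 at day 8 and 1465 at day 12. The exact 95% intervals were 453 to 538 at day 5 and 1391 to 1541 at day 12; they cover counting error only, since reads are not separate cells. The share at day 12 was the highest of the 5, and the intervals of the other 4 libraries lay far below it.

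For Sall4 the plasmid libraries had 678 and 695 RPM, and the cells 722, 821 and 1758 in order of days (95% interval at day 12, 1677 to 1842). Cbfa2t2 had 570 and 571 in the plasmid libraries, then 531, 654 and 1293 (95% interval 1224 to 1365). Tfap2c had 610 and 527 in the plasmid libraries, then 725, 743 and 1109.6 (95% interval 1046 to 1176.5). In each gene day 12 was the highest library. The day 8 interval lay above those of both plasmid libraries for Prdm14, Sall4 and Tfap2c, and the day 5 interval for Tfap2c alone. Non-targeting guides had risen by then too, and the Tfap2c median differed from theirs by 0.018 at day 5 and -0.13 at day 8.

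**Figure D1:**
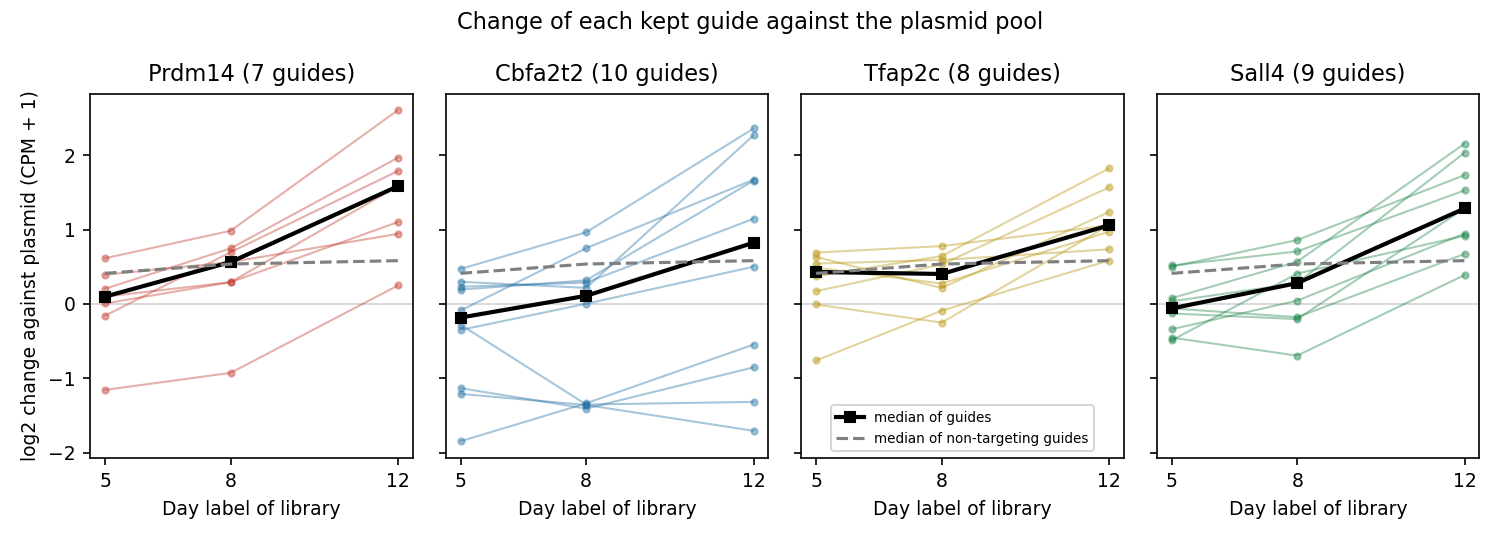
Log2 change against the plasmid pool (y axis, scaled CPM plus 1) of each of the 34 kept guides at days 5, 8 and 12 (x axis), in 1 panel per gene; black squares are the median of the gene's guides and the dashed line is the median of the non-targeting guides. The medians cross the dashed line between days 8 and 12 in Cbfa2t2, Tfap2c and Sall4, where Prdm14 reaches it at day 8, and 4 guides of Cbfa2t2 stay below 0 at day 12.

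The medians at day 12 were ordered Prdm14, Sall4, Tfap2c, Cbfa2t2. Prdm14 had a median log2 change of 1.58 (SD 0.77 over 7 guides, range 0.25 to 2.61), a 3.00-fold ratio, with 7 of 7 guides above 0 and rank 8 of 1682 genes. Sall4 had 1.28 (SD 0.61 over 9 guides, range 0.39 to 2.16), Tfap2c 1.06 (SD 0.41 over 8 guides, range 0.58 to 1.82) and Cbfa2t2 0.82 (SD 1.52 over 10 guides, range -1.71 to 2.36). They ranked 15, 19 and 35. Each step in this order was smaller than the SD over guides of either neighbour. Above 0 were 30 of the 34 guides, 47.2% of gene guides and 80.4% of non-targeting guides.

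A median of 1 or more, a 2-fold gain, was found at day 12 for 3 of the 4 genes, against 1.19% of all genes (20 of 1682). The day 12 library also entered the choice of the members, so nothing is read from that share. Relative to the non-targeting guides the medians were 1.00 for Prdm14, 0.70 for Sall4, 0.48 for Tfap2c and 0.24 for Cbfa2t2, and 1 of the 4, Prdm14, then reached 1. Guides above the non-targeting median numbered 6 of 7 for Prdm14, 8 of 9 for Sall4, 8 of 8 for Tfap2c and 5 of 10 for Cbfa2t2. Guide 1 of Tfap2c, at 0.584 beside 0.582, was level with it in effect.

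At day 5 none of the 4 genes reached a 2-fold gain, as was the case for all but 0.0595% of genes. The medians were 0.099 for Prdm14, -0.18 for Cbfa2t2, 0.43 for Tfap2c and -0.060 for Sall4. Tfap2c alone lay at the non-targeting level of 0.41, ranking 62 of 1682, and the other 3 ranked 613 or lower. Tfap2c stood at 0.28 (rank 252) without plasmid library 2 and at 0.19 (rank 381) with the trend of non-targeting guides over GC content removed, and it was above 0 in all 11 alternatives run. The sign of the Prdm14 median turned when plasmid library 2 was left out (-0.0095), that of Sall4 when the guides were summed (0.056), and that of Cbfa2t2 when a guide needed 100 plasmid reads (0.038).

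The gain between days 5 and 12, which chose the members, was 1.58 for Prdm14 (7 of 7 guides above 0, range 0.55 to 1.99) and 1.29 for Sall4 (9 of 9, range 0.73 to 2.08). It was 1.11 for Cbfa2t2 (8 of 10, range -1.04 to 1.97) and 0.83 for Tfap2c (8 of 8, range 0.19 to 1.45). For Tfap2c it was 0.41, rank 159, with a minimum of 100 plasmid reads, which left 2 guides. Between days 5 and 12, 32 of the 34 guides were above 0, beside 47.4% of gene guides and 65.2% of non-targeting guides. A median of 1 or more in this interval was reached by 3 of the 4 and by 0.832% of all genes, and since the contrast chose the members nothing is read from it. The ranks were 5, 8, 13 and 17. Across non-targeting guides the slope of this change over the number of G and C bases was -0.0014 log2 units per base, where it was 0.125 for day 12 against plasmid. The 10 guides of a gene had a median of 10 such bases for Prdm14 and Cbfa2t2, 11 for Tfap2c and 13 for Sall4, beside 11 over the kept gene guides. With that trend removed, the day 12 medians were 1.47 for Prdm14, 1.05 for Sall4, 0.90 for Tfap2c and 1.02 for Cbfa2t2, so that Cbfa2t2 then reached a 2-fold gain and Tfap2c did not.

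The larger part of that difference lay in the last interval. From day 5 to day 8 the medians were 0.29 for Prdm14, 0.25 for Sall4, 0.090 for Cbfa2t2 and 0.068 for Tfap2c, beside 0.12 for non-targeting guides. From day 8 to day 12 they were 1.17, 0.90, 0.82 and 0.86 in the same order, beside 0.051 for non-targeting guides. Of the 34 guides 24 were above 0 in the middle interval and 33 in the last. The shares above 0 were 46.7% and 49.3% among all gene guides, and 63.3% and 56.2% among non-targeting guides. Both intervals share a library with the contrast that chose the members and are descriptions.

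**Figure D2:**
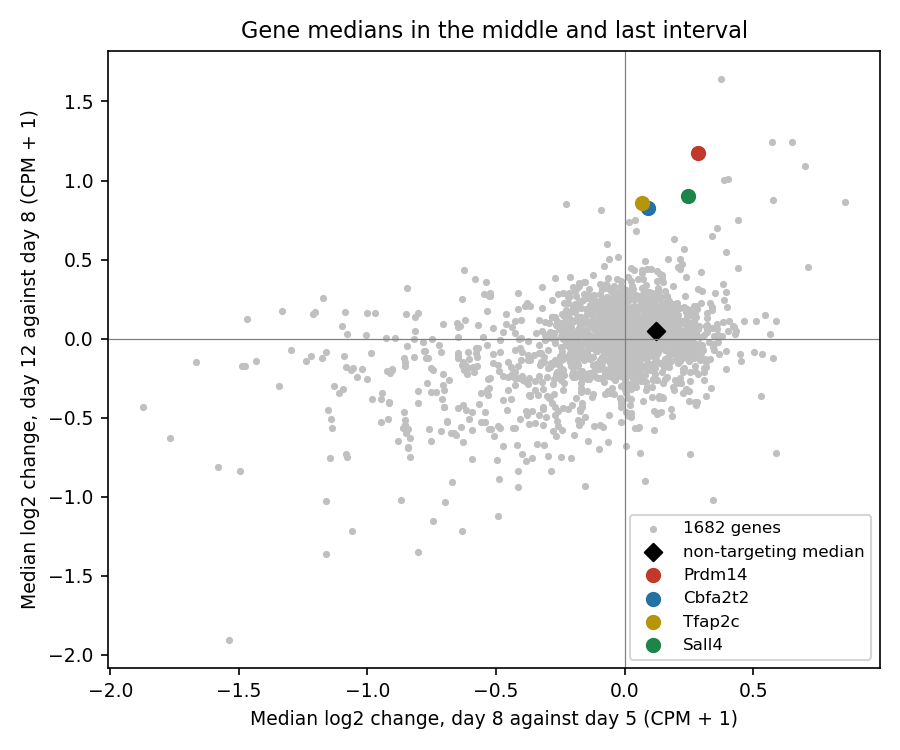
Median log2 change of each of 1682 genes (grey) from day 5 to day 8 (x axis) and from day 8 to day 12 (y axis), in scaled CPM plus 1, with the 4 genes in colour and the non-targeting median as a diamond. The 4 genes sit between 0.068 and 0.29 on the x axis, around the diamond, and between 0.82 and 1.17 on the y axis, above most genes.

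The comparison of day 8 with the plasmid pool asks whether guides had already moved by then. The contrast that chose the members did not use these libraries, though the choice was made with earlier results of these data known. The medians were 0.56 for Prdm14 (SD 0.63, 6 of 7 guides above 0), 0.40 for Tfap2c (SD 0.37, 6 of 8), 0.28 for Sall4 (SD 0.50, 6 of 9) and 0.11 for Cbfa2t2 (SD 0.96, 6 of 10). In all, 24 of the 34 guides were above 0, beside 47.9% of gene guides and 83.1% of non-targeting guides. None of these counts was tested. No member gene reached a 2-fold gain, beside 0.178% of all genes, and none a 2-fold loss, beside 12.1%. Against the non-targeting median of 0.54, the medians of Tfap2c, Sall4 and Cbfa2t2 were lower, by -0.13, -0.26 and -0.43, and that of Prdm14 differed by 0.026. That of Prdm14 was below 0 (-0.34) when a guide needed 100 plasmid reads, which left 2 of its guides. Without plasmid library 2, Prdm14 stood at 0.32, Cbfa2t2 at -0.035 and Sall4 at 0.19, and Sall4 stood at 0.17 without library 1. With the GC trend removed Tfap2c stood at 0.090 (rank 697) and Cbfa2t2 at 0.24, and with guides summed Prdm14 stood at 0.22 and Cbfa2t2 at 0.22.

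Guide by guide, edgeR's quasi-likelihood test with Benjamini-Hochberg adjustment over 15336 guides called 8 of the 34 guides higher at day 8 and 5 lower. Of all guides 16.2% were called higher and 22.5% lower, and of the 893 non-targeting guides 46.4% were called higher. The share of the 4 genes' guides called higher, 23.5%, thus lay between that of all guides and that of the controls. The spread in this test comes from the plasmid pair, with 1 residual degree of freedom, and assumes that day 8 varies as they do. DESeq2 called 0 of the 34 guides in either direction, beside 183 (1.19%) of all guides higher and 780 lower. At an unadjusted p under 0.05 it gave 5 of the 34 higher and 2 lower. Over all 15336 guides that threshold gave 831 higher and 1869 lower in DESeq2, and 178 of the 893 non-targeting guides were higher.

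The guides called higher at day 8 were 6 and 7 of Prdm14, 9 and 10 of Cbfa2t2, 8 of Tfap2c and 4, 7 and 9 of Sall4. The largest edgeR change among them was that of Prdm14 guide 7, at 1.01 (edgeR adjusted p = 0.000298), and the smallest that of Sall4 guide 9, at 0.60 (edgeR adjusted p = 0.030). Those called lower were Prdm14 guide 2, at -0.91 (edgeR adjusted p = 0.000363), and Cbfa2t2 guides 1, 4, 7 and 8, between -1.48 and -1.39. Sall4 and Tfap2c had no guide called lower by edgeR. At an unadjusted p under 0.05 edgeR gave 12 of the 34 higher and 6 lower. Over all 15336 guides it gave 3151 higher and 3970 lower, and 479 of the 893 non-targeting guides were higher.

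Single non-targeting guides spread widely at day 12, with an SD of 0.70, a 5th percentile of -0.81 and a 95th percentile of 1.53. Within Prdm14, the PR domain factor, both overlapping pairs printed above lay above that 95th percentile at day 12, guide 9 only just. Guide 7 had 164 and 67 reads in the plasmid libraries, then 78, 102 and 277 at days 5, 8 and 12, a log2 change of 2.61 at day 12. Guide 5, on the other strand of the same site, had 161 and 33, then 33, 61 and 115, and a change of 1.79. Guides 6 and 9 had 1.97 and 1.58. The lowest was guide 2, which stood at -1.16 at day 5 and -0.93 at day 8 and ended at 0.25; it had 531 and 263 plasmid reads, then 81, 96 and 191. Its difference between days 5 and 12, 1.40, was close to the gene's median of 1.58, and its distance from the other guides was present at day 5.

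The 3 Prdm14 guides below the read filter also had more reads at day 12 than at day 5. Guide 4 had 102 and 20 reads in the plasmid libraries, then 28, 58 and 188, a 7.08-fold ratio of RPM between days 5 and 12. Guide 3 had 46 and 15, then 9, 24 and 58, a 6.79-fold ratio, and guide 10 had 34 and 11, then 16, 23 and 28, a 1.84-fold ratio. With all 10 guides the median at day 12 was 1.75.

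Within Cbfa2t2, the corepressor gene, the guides stood on both sides of 0 at day 12. Above 0 were guides 2, 3, 5, 6, 9 and 10, between 0.50 and 2.36, and below 0 were guides 1, 4, 7 and 8, between -1.71 and -0.55. At the site of guides 5, 9 and 10 all 3 were high, at 1.66, 2.36 and 1.67, and guide 9 had 152 and 67 plasmid reads, then 68, 97 and 225. The overlapping guides 4 and 8 stood at -0.55 and -1.32, and of these only guide 8 lay below the 5th percentile of non-targeting guides (-0.81).

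Guides 1 and 2 of Cbfa2t2, shifted by 7 bases on the same strand, went apart. Guide 2 had 136 and 35 plasmid reads, then 42, 40 and 148, ending at 2.27. Guide 1 had 83 and 31 plasmid reads, then 10, 9 and 6, ending at -1.71. The 3 lowest guides at day 5 were 4, 1 and 7, at -1.85, -1.21 and -1.13. From day 5 to day 12 the difference was 1.30 for guide 4, 0.28 for guide 7, -0.50 for guide 1 and -1.04 for guide 8. With guides averaged in place of the median, Cbfa2t2 stood at 0.52 at day 12 and ranked 101.

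Within Tfap2c, the AP-2 gene, all 8 kept guides lay above the non-targeting median at day 12, though guide 1 was level with it in effect (0.584 beside 0.582). Guide 5 was highest, at 1.82, with 181 and 55 plasmid reads, then 63, 77 and 154, and its overlapping neighbour guide 2 stood at 1.24. Only guides 5 and 3 lay above the 95th percentile of non-targeting guides (1.53). Guide 1 was lowest, at 0.58, after -0.76 at day 5, and had 183 and 49 plasmid reads, then 27, 44 and 62. Guides 8, 2 and 9 were the highest at day 5, at 0.69, 0.63 and 0.54, and their differences between days 5 and 12 were 0.37, 0.60 and 0.19. Of the 2 guides below the read filter, guide 4 had 66 and 26 plasmid reads, then 24, 11 and 17 at days 5, 8 and 12. Guide 10 had 88 and 24 plasmid reads, then 4, 25 and 8. In RPM both ended below the plasmid libraries, guide 4 at 16.9 beside 18.6 and 19.3 and guide 10 at 7.93 beside 24.8 and 17.8. Among the days, guide 4 had fewer reads at day 12 than at day 5 and guide 10 was highest at day 8.

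Within Sall4, the spalt-like gene, guide 1 stands alone at its site and had 369 and 124 plasmid reads, then 106, 127 and 377, ending at 2.03. At the site of guides 3, 4 and 9 the changes were 1.28, 1.53 and 2.16. Guide 9 was above the 95th percentile of non-targeting guides (1.53), guide 4 level with it and guide 3 below it. The remaining large site holds 5 guides, of which 4 were kept, and these lay between 0.39 and 1.73, with guide 6 the lowest and guide 7 the highest. Guide 8 of that site, below the read filter, had 53, 67 and 79 reads at days 5, 8 and 12. Taking each site of overlapping guides once, by its mean, gave a median at day 12 of 1.30 for Sall4, 1.10 for Prdm14, 1.04 for Tfap2c and 0.39 for Cbfa2t2. All site means were above 0 for Prdm14 (5 sites), Tfap2c (6) and Sall4 (4), and 4 of 6 were for Cbfa2t2.

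The closest relatives of these genes were measured in the same libraries. Among the AP-2 genes at day 12, Tfap2d had a median of 0.70, Tfap2e 0.048, Tfap2a -0.0083 and Tfap2b -0.15, below Tfap2c at 1.06. Among the spalt-like genes Sall3 had 0.67, Sall1 0.37 and Sall2 0.19, below Sall4 at 1.28. Of the ETO genes Cbfa2t3 had 0.13 and Runx1t1 -0.12, below Cbfa2t2 at 0.82. Among 12 PRDM genes Prdm14 was the highest and Prdm4 the lowest (-0.24), and Prdm1, a partner of Prdm14 and Tfap2c in germ cells, had 0.71 with 7 of 8 guides above 0. No relative in these 4 families reached a 2-fold gain or loss at day 8 or day 12. These lists were assembled with earlier results known, and the difference between a member and its relatives was not tested. The day 12 library also entered the choice of the members, so nothing is read from their rank within a family.

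Other factors of the same pathways mostly lay lower. The 15 further genes of the germ cell list had a median of -0.024 at day 12, with 0 past a 2-fold gain and 3 past a 2-fold loss, namely Max (-4.04), Pou5f1 (-2.08) and Nanog (-1.76). Of all genes 15.8% were past that loss at day 12. The RNA-binding protein gene Lin28a (0.69) and the sex determination factor gene Dmrt1 (0.64) were the next highest of that list after Prdm1. Like Prdm1, they lay near the non-targeting median of 0.58. Of the 16 further naive and core pluripotency genes, 7 were past a 2-fold loss and 0 past a gain, with a median of -0.77. The lowest was Nr0b1, a nuclear receptor gene, at -2.09, and Sox2 stood at -0.35. The highest of the 16 was Tbx3, a T-box factor gene, at 0.77. The pluripotency list shares genes with the germ cell list, and Pou5f1 and Nanog are counted among the losses of both.

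Genes of complexes and pathways linked to these proteins were measured as well. Among 11 genes of PRC2, the polycomb complex that writes H3K27 methylation, the median at day 12 was -0.14. Its methyltransferase Ezh2 was past a 2-fold gain (1.54, 10 of 10 guides above 0), and Rbbp4 (-1.76), Jarid2 (-1.66) and Eed (-1.03) were past a 2-fold loss. Of the 14 genes of the NuRD list, which shares Rbbp4 and Rbbp7 with the PRC2 list, 0 were past a gain and 3 past a loss. Among these 3 were Rbbp4 again and the deacetylase Hdac1 (-1.82), and the highest gene of the list was Zfp219 (0.72). Centred on the non-targeting guides, 8 of the 14 genes of the NuRD list and 5 of the 11 PRC2 genes were past a loss, beside 26.8% of all genes. Ezh2 was then no longer past a gain. The 3 DNA methylation genes in the library had -0.61 (Dnmt1), -0.070 (Dnmt3a) and 0.51 (Dnmt3l). Among 10 transcription factors of the FGF-ERK pathway, Erf, an ETS repressor that ERK inactivates, was highest (1.68) and Etv5, an ETS activator, lowest (-1.68). They were the only genes of that list past a 2-fold gain or loss, and its median was 0.018; centred on the non-targeting guides, 4 of the 10 were past a loss.

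**Figure D3:**
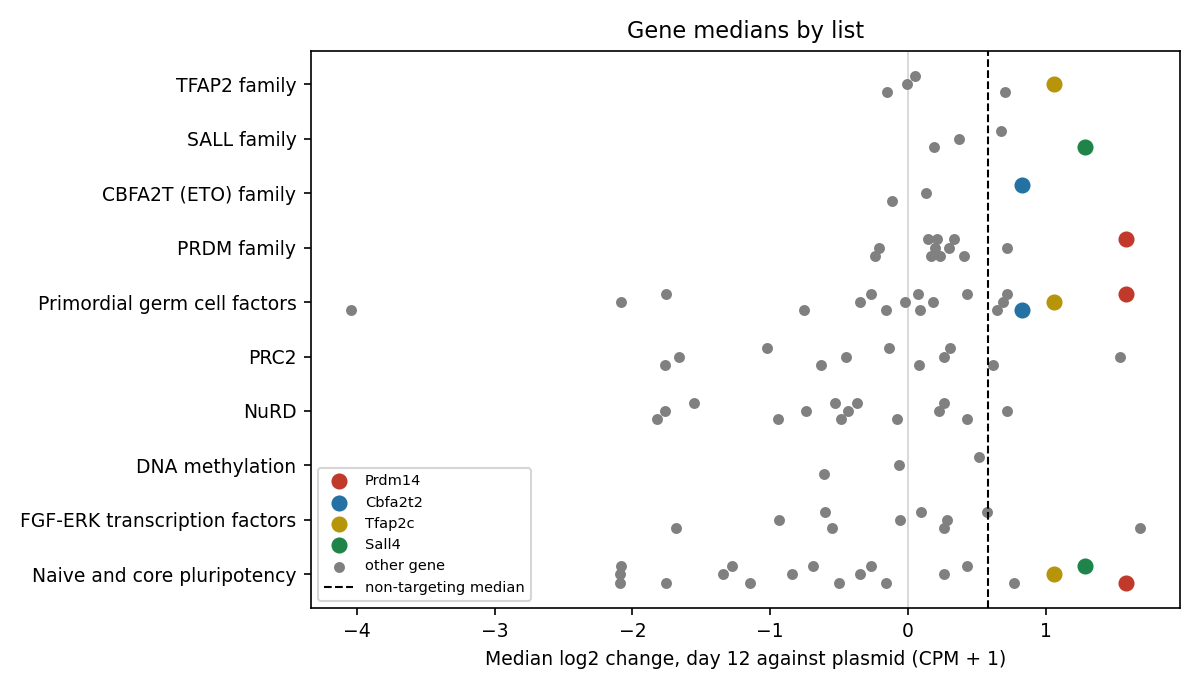
Median log2 change at day 12 against the plasmid pool (x axis, scaled CPM plus 1) of the genes in 10 lists (rows); each point is a gene, spread vertically for legibility, with the 4 genes in colour and the non-targeting median of 0.58 as a dashed line. Each coloured gene is the highest of its own family, and in the naive and core pluripotency row 7 genes lie at -1 or lower while Prdm14, Sall4 and Tfap2c lie above 1. The day 12 library entered the choice of the coloured genes, so nothing is read from their places.

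The genes whose course was most like that of each member were found by the distance between their medians at days 5, 8 and 12, over 3 time points. For Prdm14 they were Rbm15 (distance 0.13; 0.14, 0.52 and 1.46 at the 3 days), Ezh2 (0.20) and Rarg (0.28; -0.12, 0.68 and 1.44). For Sall4 they were Kmt2c (0.28; -0.23, 0.36 and 1.49), Rbm15 (0.36) and Zbtb2 (0.38). For Cbfa2t2 they were Zbtb2 (0.20; -0.28, 0.19 and 0.98), Nr1d1 (0.22) and Ybx2 (0.25). For Tfap2c they were Zfp366 (0.10; 0.35, 0.45 and 1.01), Tcf15 (0.21) and Pax9 (0.21). Among the 4 genes themselves, Prdm14 and Sall4 were nearest each other, at 0.44, and Prdm14 and Cbfa2t2 farthest apart, at 0.93.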

How the data were processed

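The authors deposited whole-number counts for each guide with no scaling, per the file headers. Cutadapt, Bowtie, featureCounts and the build mm10 are named per the submitters' processing notes; for versions and settings, the sources used here give none. All 17820 guides, 1000 of them non-targeting, have counts in 5 libraries. A guide needed 30 reads in both plasmid libraries, and 15336 passed. Counts were turned into CPM with TMM factors in edgeR 4.0.16 (R 4.3.3), 1 was added before taking log2, and a gene's value is the median over its guides. With 1 library per time point gene medians were not tested. Day 8 against plasmid was tested per guide with edgeR's quasi-likelihood test over all 5 libraries in 4 groups, with Benjamini-Hochberg adjustment at 0.05. The test was first run on simulated counts. These had the same dispersion (spread beyond counting error), 0.05, in every library, beside 0.0099 fitted to these data. That run therefore does not show how the test behaves with 1 library of cells at day 8. DESeq2 1.42.0 was an alternative. Plasmid libraries are technical preparations, so p-values measure their spread only. Symbols matched RefSeq for 1661 genes directly and 21 by an older name. The members and lists were chosen with earlier results of these data known. Named were the 4 members, their AP-2, spalt-like and ETO relatives, the 3 genes nearest in course to each, the lowest and highest gene of each other list, and Prdm1, Pou5f1, Sox2 and Nanog. Tbx3, Lin28a, Dmrt1, Jarid2, Eed, Dnmt3a and a few guides were named after their values were seen.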

Additional observations from a re-analysis of the deposited data

How the results depend on the processing

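Values were recomputed under 11 alternatives (9 for day 12 against day 5), and counted as moved when they shifted by more than 1 SD over the gene's guides. Day 12 against plasmid stayed above 0 for all 4 genes in every alternative run, between 0.63 and 1.75 for Prdm14, 0.24 and 1.36 for Cbfa2t2, 0.48 and 1.15 for Tfap2c, and 0.70 and 1.48 for Sall4. The lowest values of Cbfa2t2, Tfap2c and Sall4 are those after centring on non-targeting guides. Without centring the control level lay above 0, at 0.58 in the main setting. Beside it, Cbfa2t2 was lower with the mean over guides (0.52) and Prdm14 was close with 100 plasmid reads (0.63). Day 12 against day 5 ranged from 1.19 to 1.70 for Prdm14, 0.89 to 1.38 for Cbfa2t2, 0.41 to 0.86 for Tfap2c and 1.12 to 1.42 for Sall4. Prdm14 at day 12 moved to 0.63 with a minimum of 100 plasmid reads (2 guides) and Tfap2c to 0.475 after centring on non-targeting guides. That centring shifts all genes by the non-targeting median; at day 12 it left 1 of the 4 genes past a 2-fold gain, with 8 genes in all past a gain and 450 past a loss, against 20 and 265 before. Signs at days 5 and 8 were less stable. Centring turned Prdm14 at day 5 (-0.31), moved Sall4 at day 5 to -0.47 and turned Cbfa2t2 (-0.43), Tfap2c (-0.13) and Sall4 (-0.26) at day 8. The minimum of 100 reads turned Prdm14 at days 5 (-0.56) and 8 (-0.34) and Cbfa2t2 at day 5 (0.038). Summed guides turned Prdm14 (-0.14) and Sall4 (0.056) at day 5, and the mean over guides turned Cbfa2t2 at day 8 (-0.29). With 1 plasmid library left out Prdm14 at day 5 ranged from -0.0095 to 0.22 and Cbfa2t2 at day 8 from -0.035 to 0.10; the value below 0 was without library 2 both times. The cause was not tested. Guides of the 4 genes called higher at day 8 numbered 0 of 34 by DESeq2, 13 of 40 with no filter and 4 of 11 with 100 reads, where fewer guides were tested. All guides called higher numbered 183 (1.19%) by DESeq2, 2795 (15.9%) with no filter and 863 (19.4%) with 100 reads, and the non-targeting shares were 4.14%, 45.8% and 58.0%. Without either plasmid library the guide test has no residual degree of freedom and was not run. No paired analysis was possible because only the plasmid libraries carry replicate numbers. A median of 47 to 53 reads per guide in the cells limits single guides.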
